A study of Homo sapiens with 8 samples.

Results

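The phagocyte NADPH oxidase is the enzyme with which neutrophils and macrophages make superoxide in the respiratory burst. CYBB (gp91phox, NOX2) and CYBA (p22phox) form the membrane flavocytochrome that passes electrons from NADPH to oxygen. In a resting cell the adaptors NCF1 (p47phox) and NCF4 (p40phox) stay in the cytosol, and the enzyme works only after they and a small GTPase, RAC2 or RAC1, have joined the flavocytochrome. Its subunits accumulate as myeloid cells mature from promyelocytes to neutrophils, and HL60 has long served as a model of this step.

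These 6 genes were taken by name from the expression table, which lists 27996 genes, and all 6 were among the 13053 genes with a mean of 0.5 FPKM (fragments per kilobase of exon, scaled to the mapped reads of the library) or more. The samples were HL60, a human promyelocytic leukemia cell line, and HL60/ADR, its derivative selected with Adriamycin (doxorubicin, an anthracycline) in steps up to 0.5 μg/ml. HL60/ADR was kept in the drug, which was withdrawn 1 week ahead of the experiments. From either line came 2 input libraries of poly(A) RNA and 2 libraries of fragments pulled down with an antibody against N6-methyladenosine (IP), 8 libraries in all. HL60/ADR is a single derivative, so the effect of the drug and other differences that arose between the lines cannot be told apart. The libraries of HL60/ADR were assigned by title, because other labels of theirs name the parental line.

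The lines were told apart with limma on log2(FPKM + 1), and a difference passed the test at a Benjamini-Hochberg adjusted p under 0.05. A gene was called when its log2 fold change also lay beyond 1. The study calls the libraries of a line biological duplicates, but nothing says that they came from separate cultures, so the p-values reflect the spread among these libraries alone, which may be technical. The test was passed by 30.9% of all tested genes as higher and by 48.8% as lower in HL60/ADR, while 8.93% were called higher and 13.8% lower. The median log2 fold change of all tested genes was -0.18. Calls in the higher direction made up 39.3% of all calls, against 51.2% after quantile normalization and 58.7% after centring each library on its median. The files give no read counts per gene, so the depth behind each FPKM is unknown. A higher FPKM from more RNA per cell and from more cells that express a gene cannot be told apart.

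PU.1, the ETS factor encoded by SPI1, is known to act at promoters of oxidase genes in myeloid cells, so the letters of its binding core are shown for CYBB and NCF1. RefSeq promoter windows, from 250 bases before to 50 bases after the start on GRCh38.p14, matched 3 of the 6 genes, CYBB, CYBA and NCF1. The letters GAGGAA were searched on both strands and were present in 27.9% of all 35116 promoter windows. CYBB and NCF1 each held 1 match, on the opposite strand, 48 and 45 bases before the RefSeq start. The expression table starts NCF1 upstream of RefSeq, so its match lies within the gene's bounds there. The stretch of CYBB lies at chrX:37779999-37780028 and that of NCF1 at chr7:74773954-74773983, both on the plus strand, and capitals mark the match.
CYBB: tgctgttttcatTTCCTCattggaagaaga
NCF1: gacaaaagcgacTTCCTCtttccagtgcat
The CYBB window also held 4 matches to CCAAT on either strand, a motif in 34.6% of all windows, of which the nearest to the start began at the base after the GAGGAA match without overlap. CYBA's window held neither set of letters. These are matches of letters and were not measured as binding sites.

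All 6 subunits were expressed in both lines, and all 6 passed the test as higher in HL60/ADR on the deposited FPKM scale, although RAC2 turned to lower after quantile normalization. CYBA was the only subunit called, with 2.27 times the FPKM of HL60, and NCF1 followed with 1.93 times. RAC2, CYBB, NCF4 and RAC1 stood at 1.40, 1.30, 1.17 and 1.15 times. The share called, 1 of 6, is to be read against the 8.93% of all genes called higher, and the 6 that passed as higher against the 30.9%. Where groups did not overlap, below, that is to be read against the 79.7% of all tested genes that passed in either direction. The share of all tested genes without overlap was not counted. The median log2 fold change of the 6 was 0.43, against -0.18 over all tested genes.

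CYBB (ENSG00000165168, chromosome X, 37780059 to 37813461) encodes the catalytic subunit, which carries the flavin and the haems. Its expression was 64.1 and 65.2 FPKM in the HL60 libraries and 83.3 and 85.4 FPKM in the HL60/ADR libraries. Both HL60/ADR libraries lay above both HL60 libraries. The means were 64.7 ± 0.81 FPKM (SD, n = 2) and 84.3 ± 1.5 FPKM (SD, n = 2), a log2 fold change of 0.38 ± 0.023 (SE; limma, adjusted p = 0.000186).

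CYBA (ENSG00000051523, chromosome 16, 88643289 to 88651054) encodes the partner that stabilises CYBB and holds the docking site of NCF1. It was at 32.0 and 33.6 FPKM in HL60 and at 74.0 and 74.7 FPKM in HL60/ADR. The groups did not overlap, and the gap was far wider than that between libraries of a line. Its log2 fold change was 1.16 ± 0.031 (SE; limma, adjusted p = 2.29e-05). When each library was rescaled to the same sum (TPM scale), it was 1.01.

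The balance of the 2 flavocytochrome transcripts therefore differed between the lines. The FPKM of CYBA divided by that of CYBB, both per length, was 0.500 and 0.515 in HL60 and 0.888 and 0.875 in HL60/ADR. This ratio is taken within a library, so a common scaling factor of a library does not enter it. With 2 libraries against 2, an exact permutation test cannot give a two-sided p below 0.333, so no test was made on it.

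NCF1 (ENSG00000158517, chromosome 7, 74773962 to 74789376) encodes the organiser whose phosphorylation starts assembly. It was at 40.4 and 43.4 FPKM in HL60 and at 79.5 and 81.8 FPKM in HL60/ADR, without overlap, with a log2 fold change of 0.93 ± 0.042 (SE; limma, adjusted p = 7.92e-05). NCF1 has near-identical copies on the same chromosome, the pseudogenes NCF1B (73220624 to 73235945) and NCF1C (75156639 to 75172044), and reads of the 3 loci could have been divided among them in more than one way, so its own level is uncertain. NCF1B was at 27.4 and 28.2 FPKM in HL60 and 66.1 and 69.3 FPKM in HL60/ADR. NCF1C was at 42.9 and 40.3 FPKM in HL60 and 100.2 and 103.7 FPKM in HL60/ADR. Both pseudogenes were called higher, with log2 fold changes of 1.25 and 1.27 (limma, adjusted p = 2.26e-05 and 2.95e-05).

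Summed over the 3 loci, a quantity that depends less on how reads were divided among them, FPKM was 110.7 and 111.9 in HL60 and 245.8 and 254.8 in HL60/ADR, a ratio of 2.25. The part assigned to NCF1 was 36.5% and 38.8% in HL60 and 32.4% and 32.1% in HL60/ADR. So the sum differed more between the lines than the level assigned to NCF1 did, 2.25 against 1.93 times. With libraries centred on their median, NCF1 itself was called, at a log2 fold change of 1.14.

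NCF4 (ENSG00000100365, chromosome 22, 36860988 to 36878017) encodes the adaptor that binds phosphatidylinositol 3-phosphate on phagosomes. It was at 72.1 and 75.7 FPKM in HL60 and at 85.3 and 88.2 FPKM in HL60/ADR, again without overlap. Its log2 fold change was 0.23 ± 0.034 (SE; limma, adjusted p = 0.00336). On the TPM scale it was 0.068 (adjusted p = 0.108 from limma) and after quantile normalization 0.019 (adjusted p = 0.661), so whether NCF4 passed the test depends on the scaling.

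RAC2 (ENSG00000128340, chromosome 22, 37225270 to 37244448) encodes the Rac GTPase of blood cells. It was at 140.7 and 142.8 FPKM in HL60 and at 195.8 and 200.2 FPKM in HL60/ADR. All HL60/ADR values were higher, with a log2 fold change of 0.48 ± 0.021 (SE; limma, adjusted p = 6.96e-05). After quantile normalization the direction turned, to -0.092 (adjusted p = 0.0189). RAC2 stood above 98.96% and 99.00% of the tested genes in the HL60 libraries and above 98.85% and 98.88% in the HL60/ADR libraries, so its rank did not move up.

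RAC1 (ENSG00000136238, chromosome 7, 6374527 to 6403967) encodes the widely expressed Rac GTPase. It was at 32.6 and 33.5 FPKM in HL60 and at 37.8 and 38.4 FPKM in HL60/ADR, with a log2 fold change of 0.20 ± 0.026 (SE; limma, adjusted p = 0.00217). On the TPM scale this was 0.041 (adjusted p = 0.178). RAC2 exceeded RAC1 per length in every library, by 4.32 and 4.26 times in HL60 and by 5.18 and 5.21 times in HL60/ADR.

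**Figure D1:**
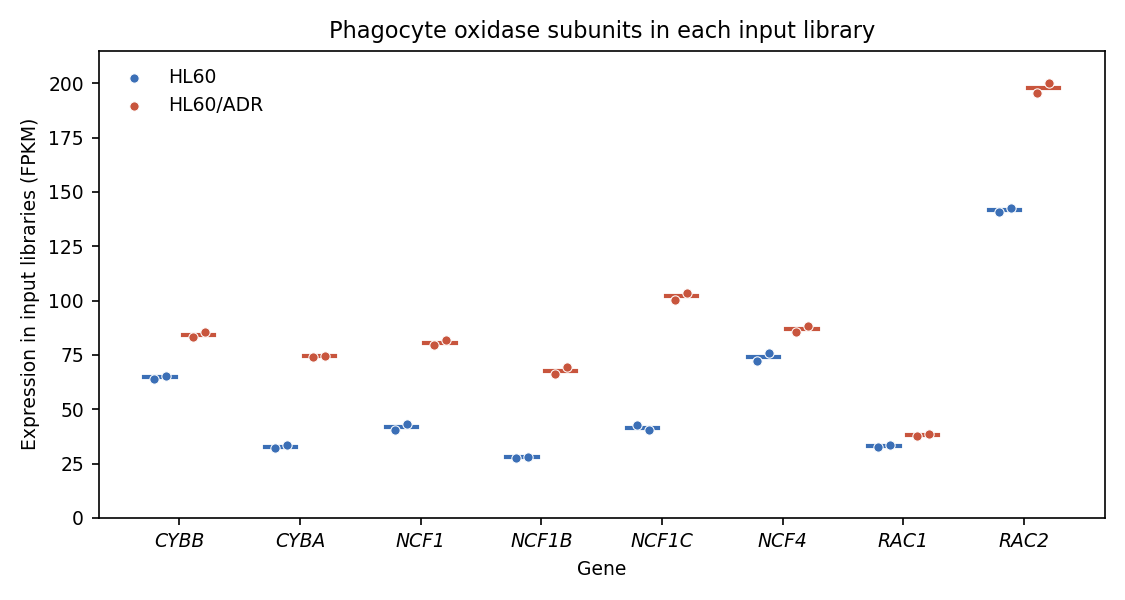
Expression in FPKM (vertical axis, linear from 0) of the 6 subunit genes and of the NCF1 pseudogenes NCF1B and NCF1C. Each point is an input library, blue for HL60 and red for HL60/ADR, and short horizontal lines are the means of 2 libraries. The red points lie above the blue points for every gene shown, by the widest margin in FPKM for NCF1C and RAC2.

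Within HL60, the order by FPKM was RAC2, NCF4, CYBB, NCF1, RAC1 and CYBA, and the ranges of RAC1 (32.6 to 33.5) and CYBA (32.0 to 33.6) overlapped. Within HL60/ADR it was RAC2, NCF4, CYBB, NCF1, CYBA and RAC1. There the ranges of NCF4 (85.3 to 88.2) and CYBB (83.3 to 85.4) touched. The 5 genes other than RAC2 spread from 32.0 to 75.7 FPKM in HL60. In HL60/ADR, 4 of them lay between 74.0 and 88.2 FPKM, and RAC1 was at 37.8 and 38.4 FPKM.

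**Figure D2:**
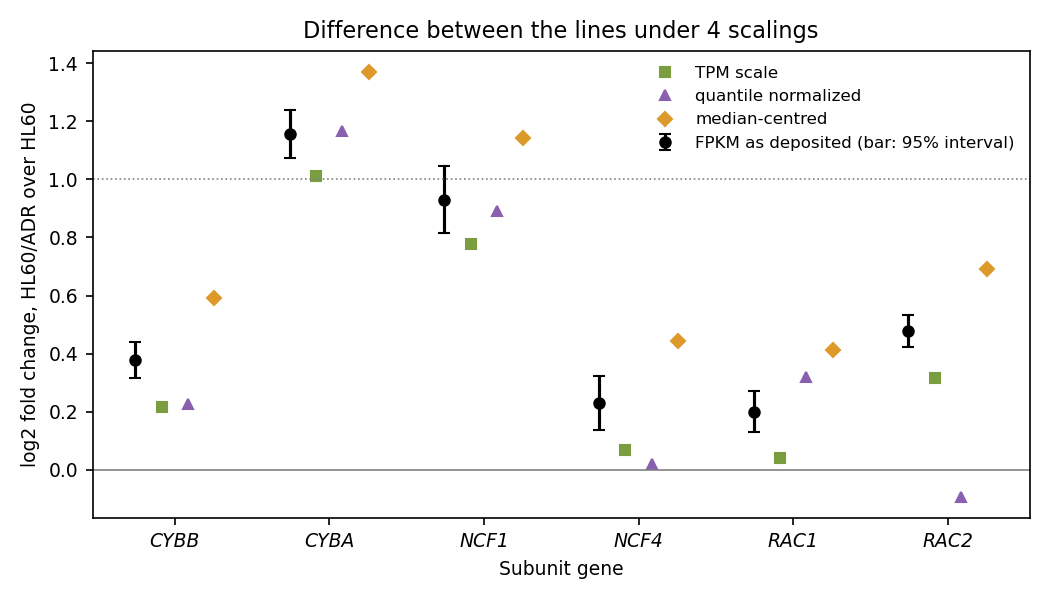
Log2 fold change of HL60/ADR over HL60 (vertical axis) for each subunit under 4 scalings of the libraries. Circles are FPKM as deposited with the 95% interval of limma, squares the TPM scale, triangles quantile normalization and diamonds libraries centred on their median, and the dotted line is the limit of 1 for a call. CYBB, CYBA and NCF1 stay above 0 under all 4, NCF4 and RAC1 come within 0.1 of 0 under at least 1 of them, and RAC2 is at -0.092 under quantile normalization.

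The genes whose levels over the 4 input libraries were closest to a subunit's were found by the Euclidean distance of log2(FPKM + 1). For CYBB they were BTF3, SNX3 and RPSAP58, at distances of 0.09 to 0.12. PABPN1, TCIRG1 and CREG1 were closest to CYBA, and ACAT2, AC073861 and KDELR1 to NCF1. NONO, CDC37 and GRK2 were closest to NCF4, ATP6AP1, IQGAP1 and BABAM1 to RAC1, and HSPA5, ANP32B and ATF4 to RAC2. No subunit was among the 3 genes closest to another. Since 4 libraries of 2 lines carry little pattern beyond a level and a difference, this is a description of levels only.

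The subunit genes lie on 4 chromosomes, and NCF4 and RAC2 are 347 kb apart on chromosome 22. Tested genes within 250 kb of NCF4 numbered 6, of which 0 were called higher and 2 lower, with CSF2RB, the common beta chain of cytokine receptors, the lowest at a log2 fold change of -1.22. Around RAC2, 0 of 9 were called higher and 2 lower. Around CYBA, 5 of 13 were called higher and 0 lower, led by MVD, an enzyme of sterol synthesis, at 2.59. Around NCF1, 1 of 7 was called higher and 0 lower, and around RAC1, 0 of 9 higher and 1 lower. The only tested neighbour of CYBB, XK, was called lower at -1.88. The median log2 fold change was -0.54 around NCF4 and -0.67 around RAC2, but these windows overlap and share 4 genes (TST, MPST, KCTD17 and IL2RB). Over all tested genes, 8.93% were called higher and 13.8% lower. These windows were chosen after the values were seen.

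m6A on the subunit transcripts was read from the deposited lists of peaks, 1 list per line, in which the replicates of a line had been pooled. For each peak the list gives a fold enrichment, the ratio of IP over input. Pooled lists have no spread between replicates, so the differences below carry no test, and each list was called on its own. In HL60, 5 of the 6 genes carried 8 peaks, and in HL60/ADR 4 of them carried 6. Of all tested genes, 78.7% had a peak in the HL60 list and 78.0% in the HL60/ADR list. Restricted to a mean of 20 FPKM or more, a level that all 6 exceeded, these shares were 80.0% and 76.4%. The lists also hold peaks under a fold enrichment of 2, the minimum in the definition of an m6A peak that the study applied. With that minimum 3 of the 8 peaks in HL60 remain, in CYBB, NCF4 and RAC2, and 3 of the 6 in HL60/ADR, in NCF4 and RAC2, while the peaks of RAC1 and NCF1 drop out. By this measure 3 of the 6 genes were marked in HL60 and 2 in HL60/ADR, against 72.5% and 73.6% of all tested genes. At a fold enrichment of 4 or more and a false discovery rate of at most 1e-05, 2 subunits had a peak in each line, NCF4 and RAC2, against 39.6% of tested genes in HL60 and 51.5% in HL60/ADR.

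The strongest peaks of the family were in the 3′ UTRs of NCF4 and RAC2. The NCF4 peak, in 2 exon blocks, spanned chromosome 22, 36875857 to 36878017, in HL60. In HL60/ADR it began at 36875828 and had the same end. Its fold enrichment was 4.74 in HL60 and 11.9 in HL60/ADR, 2.51 times as high. It was the only subunit peak that differed more than 2-fold between the lines, as did 19.0% of all 16544 pairs of overlapping peaks in the higher direction and 4.81% in the lower. Among the 1886 pairs in genes with a mean of 20 FPKM or more, 10.1% were over 2-fold higher. In HL60, 83.7% of peaks in such genes were weaker than the NCF4 peak, and in HL60/ADR 94.0% were.

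The RAC2 3′ UTR peak spanned chromosome 22, 37225270 to 37225893 in HL60 and reached 37225923 in HL60/ADR, at the very 3′ end of the gene on the minus strand. Its fold enrichment was 7.10 in HL60 and 9.31 in HL60/ADR, a ratio of 1.31 that lies close to the median of 1.27 over all pairs. In HL60 it was the strongest peak of the 6 genes, and in HL60/ADR the NCF4 peak stood above it. Both genes also had a weaker peak in the 5′ UTR. For NCF4 it was at 1.68 in HL60 and 1.95 in HL60/ADR, and for RAC2 at 1.24 and 2.04, a ratio of 1.65. All 4 pairs of NCF4 and RAC2 thus had the higher value in HL60/ADR.

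CYBB was the only subunit with an overlapping pair whose value was lower in HL60/ADR. Its 3′ UTR carried 2 peaks in HL60, at chromosome X, 37809666 to 37811034 and 37812293 to 37812592, with fold enrichments of 2.02 and 1.91. HL60/ADR had 1 peak there, 37810855 to 37811004, at 1.17. The overlapping pair had a ratio of 0.58, lower than in all but 7.45% of pairs, but within 2-fold. The HL60/ADR value is low for its list, since 1.21% of peaks in genes with a mean of 20 FPKM or more were weaker. In HL60 37.3% and 33.4% of such peaks were weaker than those of CYBB.

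RAC1 had a peak in HL60 alone, in the 3′ UTR (chromosome 7, 6402745 to 6403133), at a fold enrichment of 1.43. NCF1 had 1 weak peak in each line at different ends of the gene, in the 5′ UTR in HL60 at 1.19 and in the 3′ UTR in HL60/ADR at 1.62. The peak caller's log10 of the false discovery rate was -1.20 and -0.86 for these, above a rate of 0.05. Peaks of the pseudogenes lay between 1.85 and 3.31, and their reads are subject to the same uncertainty as those of NCF1. CYBA, the subunit with the largest difference in RNA, had 0 peaks in either list, also when all peaks within its bounds were counted. No RAC1 peak in HL60/ADR and no CYBA peak means only that none passed the authors' threshold.

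**Figure D3:**
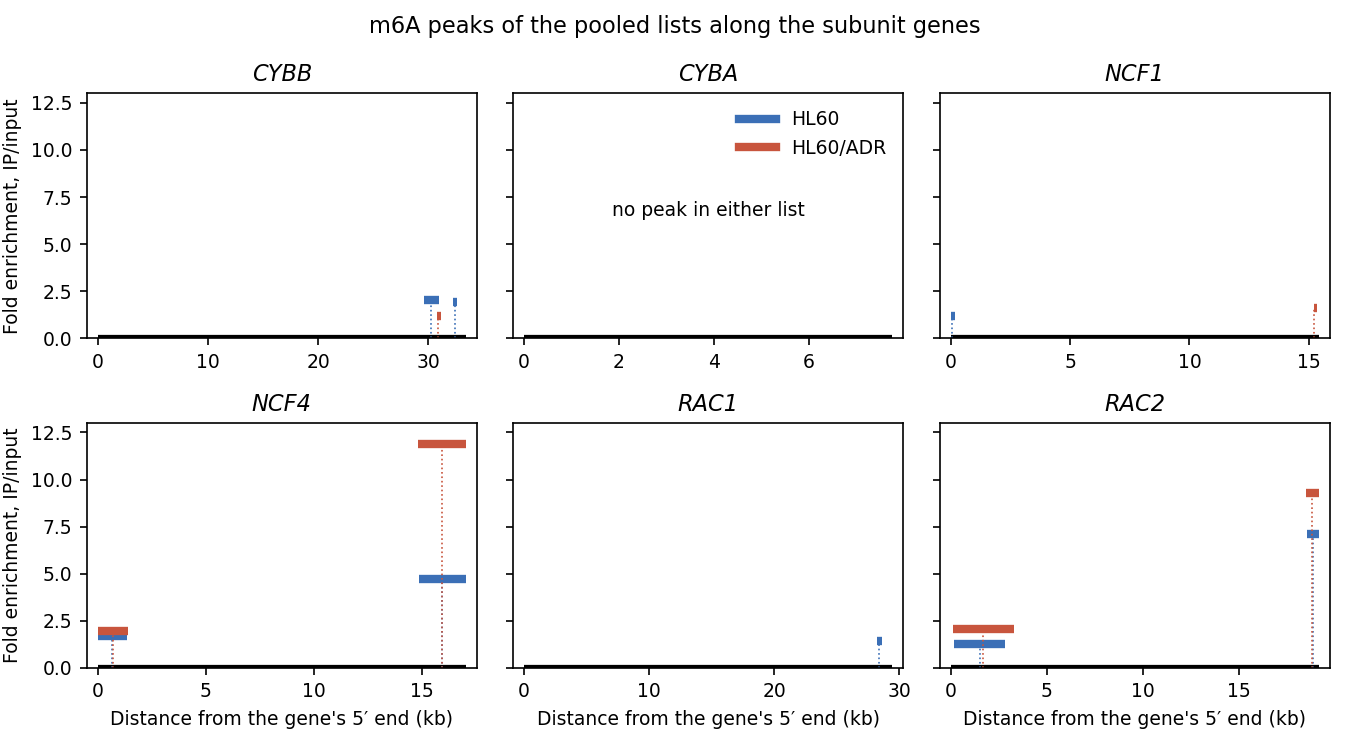
Fold enrichment (vertical axis, IP over input) of each m6A peak along the 6 subunit genes, against the distance from the gene's 5′ end in kb. Each bar spans a peak, introns between its blocks included, blue for HL60 and red for HL60/ADR, and the black line is the gene. The 3′ UTR peaks of NCF4 and RAC2 stand at 4.74 to 11.9, and every other peak is at 2.04 or less.

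Other genes that assemble or switch on the oxidase did not move as a block. Of 26 such genes listed, 25 were tested, 4 were called higher and 1 lower, and their median log2 fold change was 0.09.

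The inhibitors that hold Rac in the cytosol went in opposite directions. ARHGDIB, the form of blood cells, was called higher, from 362 and 370 to 759 and 788 FPKM. Its log2 fold change was 0.91 on the TPM scale and 0.34 after quantile normalization, short of a call. ARHGDIA, the widely expressed form, was called lower, from 142.8 and 143.6 to 34.1 and 36.3 FPKM (log2 fold change -1.99). Signalling genes of the burst called higher were PIK3R5, a regulatory subunit of PI3-kinase gamma, at a log2 fold change of 1.51 and the phospholipase PLCB2 at 1.13 (limma, adjusted p of the 4 between 1.23e-05 and 0.000109). Of the 51 pairs of m6A peaks in this list, 6 differed over 2-fold with the higher value in HL60/ADR and 1 with the lower. Over all pairs these shares were 19.0% and 4.81%. The median ratio was 1.24 in this list and 1.27 over all pairs.

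Relatives of the catalytic subunit and of Rac gave little more. Of 10 genes of other NADPH oxidases, 4 were listed and 1 was tested, NOXA1, an activator of another oxidase. NOXA1 was called higher, from 0.242 and 0.467 to 2.95 and 2.83 FPKM, but entered the test only through HL60/ADR. RAC3, the third Rac GTPase, was called lower, from 11.1 and 11.9 FPKM in HL60 to 3.14 and 3.06 FPKM in HL60/ADR (log2 fold change -1.60). It was the least abundant of the Rac genes in every library.

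Receptors whose ligands start the burst differed widely, with 9 of 19 tested genes (47.4%) called higher and 5 (26.3%) lower. Over all tested genes these shares were 8.93% and 13.8%. Of those called higher, FCGR3B and CLEC7A had means under 0.5 FPKM in HL60 and entered the test only through HL60/ADR. TLR2 and TLR4, called lower, had such means in HL60/ADR and entered only through HL60. The filter fixed the direction of these genes, so both shares rest partly on it. The integrin chains of complement receptor 3 were called higher, ITGAM from 8.48 and 8.66 to 46.0 and 47.2 FPKM and ITGB2 from 47.8 and 48.7 to 109.7 and 112.3 FPKM. FCER1G, the signalling chain of Fc receptors, went from 25.8 and 23.6 to 100.4 and 98.5 FPKM. CLEC7A, the beta-glucan receptor Dectin-1, went from 0.276 and 0.355 to 4.95 and 5.73 FPKM, a log2 fold change of 2.27. Called lower were the Toll-like receptors TLR2, from 4.53 and 4.66 to 0.0312 and 0.0544 FPKM, and TLR4, from 4.90 and 4.82 to 0.443 and 0.482 FPKM.

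Of 16 tested transcription factors described at oxidase genes, 0 were called higher and 1 lower, and 4 passed the test as higher and 9 as lower, shares near those of all tested genes. After quantile normalization or centring on the median 1 was called higher. SPI1, the gene of PU.1, was at 92.3 and 95.5 FPKM in HL60 and 89.2 and 90.9 FPKM in HL60/ADR (log2 fold change -0.06; limma, adjusted p = 0.0923). After centring on the median its log2 fold change was 0.15 and after quantile normalization -0.32, so its direction depends on the scaling. CEBPA, a factor of early granulocytes, was called lower, from 79.8 and 80.4 to 21.7 and 20.3 FPKM. CEBPE, which acts in later granulocytes, was at 68.4 and 65.7 FPKM in HL60 and 53.5 and 57.1 FPKM in HL60/ADR.

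Granule genes, which mark stages of maturation, differed more in size than the oxidase subunits. Both lines expressed MPO, the defining peroxidase of promyelocytes, at 136.7 and 135.4 FPKM in HL60 and 244.0 and 252.0 FPKM in HL60/ADR. Of 14 tested azurophil granule genes 9 (64.3%) were called higher and 1 (7.14%) lower, with a median log2 fold change of 1.91. The shares over all tested genes were 8.93% and 13.8%. Of those called higher, ELANE, DEFA1 and DEFA3 had means under 0.5 FPKM in HL60 and entered the test only through HL60/ADR. PRSS57, the gene called lower, had such a mean in HL60/ADR and entered only through HL60. The filter fixed the direction of these genes, so both shares rest partly on it. CTSG (cathepsin G) went from 5.57 and 7.87 to 795 and 819 FPKM, BPI from 2.25 and 2.64 to 218 and 223 FPKM, and AZU1 from 8.08 and 7.54 to 112.2 and 113.2 FPKM. ELANE, neutrophil elastase, was at 0.406 and 0.244 FPKM in HL60 and at 6.46 and 8.05 FPKM in HL60/ADR. The summed FPKM of the azurophil list was 375 and 377 in HL60 and 1770 and 1812 in HL60/ADR.

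Genes of later neutrophils were few, and most of those tested were called higher. Of 22 on the list 9 were tested. Of these, 6 (66.7%) were called higher and 1 (11.1%) lower (2 without HL60 replicate 2), with a median log2 fold change of 1.39. Over all tested genes the shares were 8.93% and 13.8%. CXCR2 was the gene called lower, at -1.14, and TCN1 passed the test as lower, at -0.92. Of those called higher, ARG1, FCGR3B and CYP4F3 had means under 0.5 FPKM in HL60 and entered the test only through HL60/ADR. TCN1 had such a mean in HL60/ADR and entered only through HL60. The filter fixed the direction of these genes, so the share called higher rests partly on it. Another 9 listed genes, LTF and LCN2 among them, had a mean under 0.5 FPKM and were not tested. S100A9, a calcium-binding protein that aids oxidase activation, went from 36.1 and 38.4 to 399 and 360 FPKM. MGAM, at 1.14 and 1.30 FPKM in HL60, was at 11.5 and 11.8 FPKM in HL60/ADR. Of the monocyte and macrophage genes 7 were tested, 1 was called higher (CD68) and 1 lower (CSF1R, log2 fold change -1.63), and after quantile normalization or centring on the median 3 were called higher. Of 3 tested progenitor genes 2 were called lower, MYC from 109.0 and 110.5 to 17.1 and 17.4 FPKM and GATA2 from 67.6 and 67.9 to 9.54 and 10.2 FPKM.

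**Figure D4:**
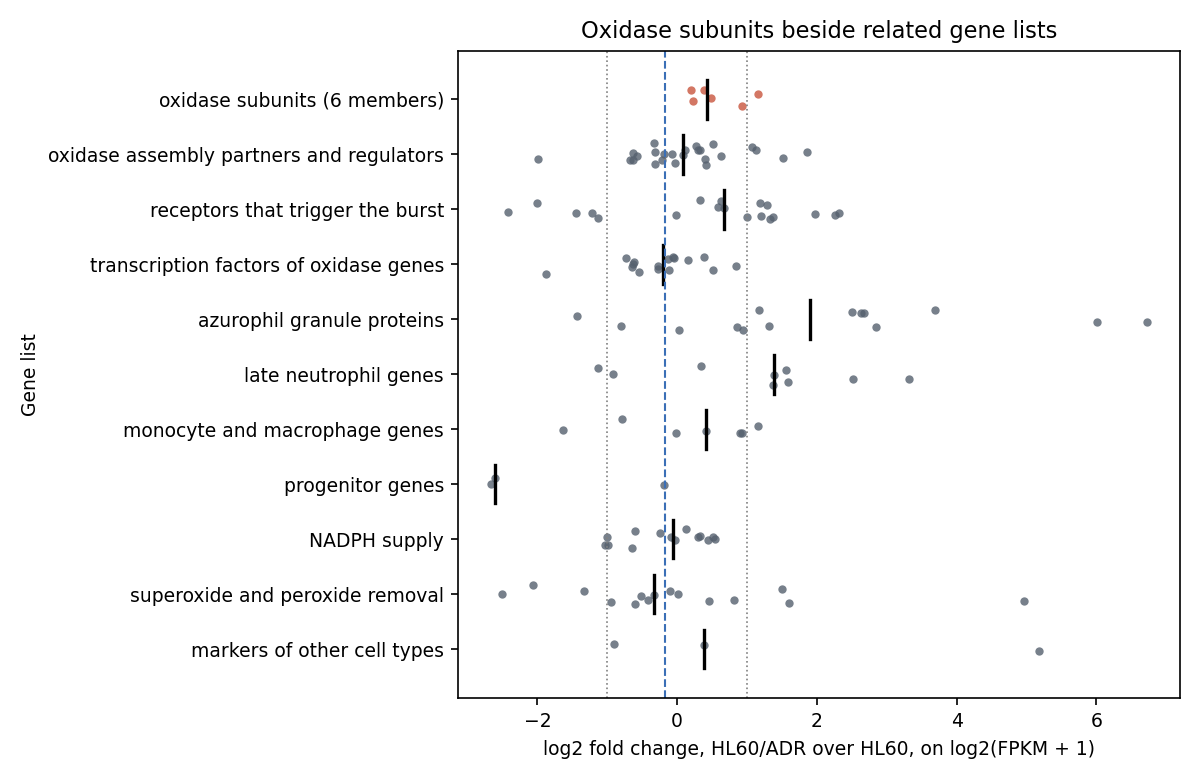
Log2 fold change of HL60/ADR over HL60 (horizontal axis) of each tested gene in 10 gene lists and of the 6 oxidase subunits. Points are genes, spread vertically for legibility, black bars are medians, the dashed line is the median of all tested genes (-0.18) and dotted lines mark -1 and 1. The subunits lie between 0.20 and 1.16, azurophil granule genes have a median of 1.91 and progenitor genes one of -2.60.

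The oxidase draws on NADPH, and its superoxide is turned into hydrogen peroxide by dismutases. Of 14 genes of NADPH supply 0 were called higher and 2 (14.3%) lower, a share near the 13.8% of all tested genes called lower. RPIA, an isomerase of the pentose phosphate pathway, was called lower at a log2 fold change of -1.03. PGD, a dehydrogenase of that pathway that makes NADPH, was at 97.0 FPKM in both HL60 libraries and 131.3 and 131.8 FPKM in HL60/ADR. After quantile normalization or centring on the median, 0 of these genes were called lower, and without HL60 replicate 2 the number was 1.

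Enzymes that remove oxidants were divided, with 3 of 15 tested genes called higher and 3 lower. CAT (catalase) went from 48.3 and 48.7 to 148.3 and 149.0 FPKM, and PRDX2 from 0.486 and 0.0940 to 38.9 FPKM in both HL60/ADR libraries. PRDX2 entered the test only through HL60/ADR. TXNRD1, thioredoxin reductase, was called lower at a log2 fold change of -2.51, and PRDX1 went from 351 and 349 to 84.9 and 81.6 FPKM. Superoxide production itself was not measured in these data, so the values concern transcripts only.

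Markers of other cell types were mostly low, except CD79A and CD3D. Of 15 markers 9 were listed in the expression table, with a summed FPKM of 10.4 and 9.98 in HL60 and 63.9 and 61.0 in HL60/ADR. CD79A, a chain of the B cell receptor, made up most of the HL60 sum, at 8.19 and 8.89 FPKM, and fell to 4.27 and 3.90 FPKM in HL60/ADR (log2 fold change -0.91; limma, adjusted p = 0.000256). CD3D, a chain of the T cell receptor complex, made up most of the HL60/ADR sum, at 0.469 and 0.617 FPKM in HL60 and 54.7 and 55.6 FPKM in HL60/ADR. CD3E, the partner of CD3D, was at 0.0925 and 0.0757 FPKM in HL60 and 0.846 and 0.752 FPKM in HL60/ADR. The part of such cells or transcripts in the differences of the oxidase genes was not tested.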

How the data were processed

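Input and IP libraries of HL60 and HL60/ADR were sequenced. Reads had been cleaned with fastp, aligned to GRCh38 with HISAT2 and counted by the authors as FPKM with StringTie. Peaks had been called with exomePeak at p under 0.05 from the pooled replicates of a line and annotated with ChIPseeker. In the deposited peak lists the fold enrichment is a ratio between IP and input, and beside it stand the peak caller's p-value and, as scores, its log10 and that of the false discovery rate, all made by the authors. Versions of the aligner, the peak caller and StringTie are not given in the sources used here.

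Expression was fitted with limma 3.58.1 (R 4.3.3), two-sided and with an intensity trend, on log2(FPKM + 1), with cell line as the only term. The 13053 genes whose mean reached 0.5 FPKM entered, and p-values were adjusted over these. A gene with a mean under 0.5 FPKM in 1 line entered only through the other, so the filter fixed its direction. Folds on this scale understate the change of low genes. No count test was run, since the values are not counts. The script was tested on simulated data. Peaks sharing at least 1 base of their exon blocks 1 to 1, without regard to strand, were matched with bedtools 2.31.1. Other steps used Python 3.11.15 (pandas 2.3.3, numpy 2.4.6, matplotlib 3.10.9).

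The 6 subunits and the 12 gene lists, 194 genes in all, were chosen with earlier results of these data known. Named besides the subunits and the NCF1 pseudogenes were, from each list, up to 4 called genes of the largest change, up to 2 of the highest mean FPKM, and the 3 genes closest to each subunit. ELANE, CD3E, CXCR2, TCN1, LTF, LCN2, FCGR3B, CYP4F3, DEFA1, PRSS57 and the genes near the subunits were named outside this rule, after their values were seen. Some genes and 1 list that the rule takes in are not reported here. No set test was run. Alternatives were the pseudocount, the filter, 3 scalings, the trend, a replicate block, leaving out each input library, and the thresholds and overlap of peaks. Sequences in peaks were not analysed here, since no genome sequence was used.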

Additional observations from a re-analysis of the deposited data

How the results depend on the processing

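Over the alternatives, 62 of 66 values of the 6 subunits kept their direction and their side of the adjusted p of 0.05. The exceptions came from scaling, and the cause was not tested. On the TPM scale the log2 fold change of NCF4 was 0.068 and that of RAC1 0.041, and after quantile normalization that of NCF4 was 0.019 and that of RAC2 -0.092. Median-centring turned IDH2 to 0.13, MYB to 0.021, RHOA to 0.10, RHOG to 0.028 and SPI1 to 0.15. Of the other named genes' values, 6 lost and 2 gained the threshold and 526 did neither, and 27 counts moved by over 1.5 times while 299 did not. The median of all genes was -0.38 on the TPM scale, -0.03 after quantile normalization and 0.04 after centring. With a pseudocount of 0.1, 1778 genes were called higher and 2712 lower, against 1165 and 1798. On the TPM scale 3196 were called lower, and after centring 1169. At a fold enrichment of 2 or more, 3 subunits held a peak in HL60, against 2 in HL60/ADR, with 2 pairs, and with the stricter threshold 2 in each line, with 2 pairs.

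Without each input library in turn, all 6 subunits passed the test as higher, with the log2 fold change of CYBA from 1.12 to 1.19 and that of NCF4 from 0.19 to 0.26. Same-numbered libraries share only a number: their deviations correlated at 0.04 over genes. With the replicate block, 1165 genes were called higher and 1800 lower, and CYBA had an adjusted p of 0.000255. The design has 2 libraries per line and peaks without replicates, which limits each statement here.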
